A study of Mus musculus with 6 samples.

Results

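The genes described here are those of the response to low oxygen and of glycolysis, a set of 37 genes named by symbol, of which the deposited table holds 36 among its 12969 genes. Pfkfb1, a bifunctional enzyme that sets the level of the phosphofructokinase activator, is not analysed here. The 36 genes had a mean of at least 1 RPKM (reads scaled to gene length and library size), as did 12913 genes in all, and these were compared between genotypes. The tissue was infarct of male mice about 12 weeks old, taken from perfused hearts 4 days after the left anterior descending coronary artery was tied off for good. One group lacked the transcription factor Irf3 (IRF3-/-, 3 libraries, strain not stated), and the other was wild type (C57BL/6, 3 libraries). Every mouse had the ligation, and hearts without it were not analysed here, so levels are compared between genotypes and not against an uninjured heart. Since nothing more is recorded of the animals behind each library, the p-values speak only to the scatter among these libraries, which may be technical.

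As background, cells that run short of oxygen stop hydroxylating the transcription factor HIF-1 alpha, which then escapes destruction and binds short DNA elements with the core ACGTG or GCGTG near its targets. Among those targets are genes of glucose uptake, nearly every enzyme of glycolysis and signals for vessel growth. Others keep pyruvate from being burned in mitochondria. Many glycolytic steps are served by several genes, and heart muscle uses its own isozymes, such as Pgam2, Eno3, Pfkm and the insulin-responsive glucose carrier Slc2a4. Macrophages, fibroblasts and other cells of a healing infarct rely on broadly expressed isozymes.

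Depth, read from the steps between low values, lay between 14.8 M and 61.9 M reads in genes per library. The lowest member, Ankrd37, had from 32 reads in wild-type replicate 3 to 177 reads in knockout replicate 3, which limits its precision through counting alone. Knockout replicate 2 stood apart from the other libraries, with a mean correlation of 0.907 against 0.941 to 0.966, so group values are also given without it. Cardiomyocyte markers Myh6 and Tnnt2, the macrophage marker Cd68 and the fibroblast marker Col1a1 were all read in every library, the lowest of these values being 154 RPKM for Cd68. Irf3 itself stood at 7.40, 8.74 and 7.68 RPKM in the knockout and 13.8, 13.9 and 11.6 RPKM in the wild type, lower in every knockout library but still read (limma adjusted p = 0.344).

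No gene of the set passed the test between genotypes, and most of them read somewhat higher in the knockout. With limma, 0 of 36 had an adjusted p under 0.05, where 0.503% of all genes tested did (0.147% higher). At an unadjusted p under 0.05 there were 4 genes, Egln3, Ankrd37, Slc2a4 and Eno3, all higher, where 8.4% of all genes reached that level, 2.45% higher and 5.96% lower. The log2 fold change was above 0 for 27 of the 36 genes (75%) and for 40.7% of all genes, and its median was 0.30 against -0.09 for all genes. Scaling the libraries by median-of-ratios factors moved the median of all genes to 0.02 and that of the set to 0.43, so the set stood 0.39 above all genes before and 0.41 after. With quantile normalization, where the median of all genes was 0.01, it stood 0.21 above, and without knockout replicate 2 also 0.21 above. In 7 genes, Egln3, Ankrd37, Tpi1, Pgam1, Eno1, Pkm2 and Ldha, all knockout libraries lay above all wild-type libraries, and in 0 they lay below, where 6.61% and 11.8% of all genes did so.

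**Figure D1:**
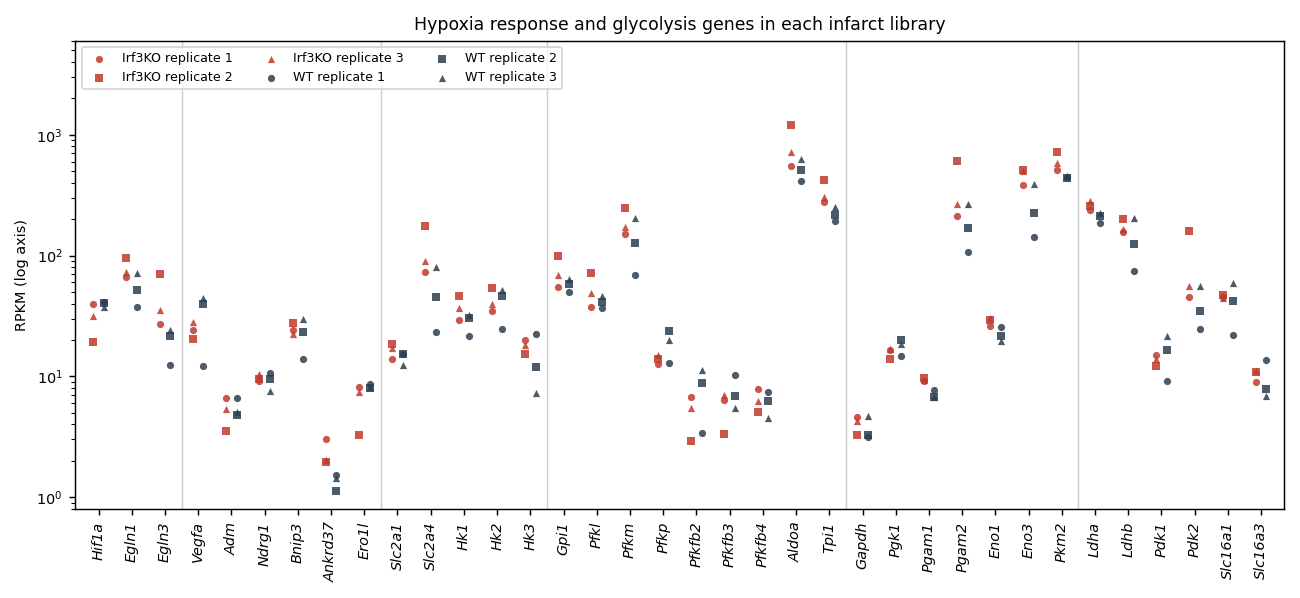
RPKM on a log axis for the 36 genes in each of the 6 libraries, ordered by role from oxygen sensing (left) to pyruvate and lactate (right), with 1 point per library. Levels ran from 1.13 RPKM for Ankrd37 to 1205 RPKM for Aldoa, and for muscle isozymes such as Slc2a4, Eno3 and Ldhb wild-type replicate 1 lay lowest.

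The libraries at the 2 ends of the range were the same for many genes. Wild-type replicate 1 gave the lowest value for 20 of the 36 genes (55.6%, against 16.9% of all genes). Knockout replicate 2 gave the highest value for 16 of them (44.4%, against 24.2% of all genes). Knockout replicate 2 was also the lowest library for 52.3% of all genes, and for 16.7% of the set.

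**Figure D2:**
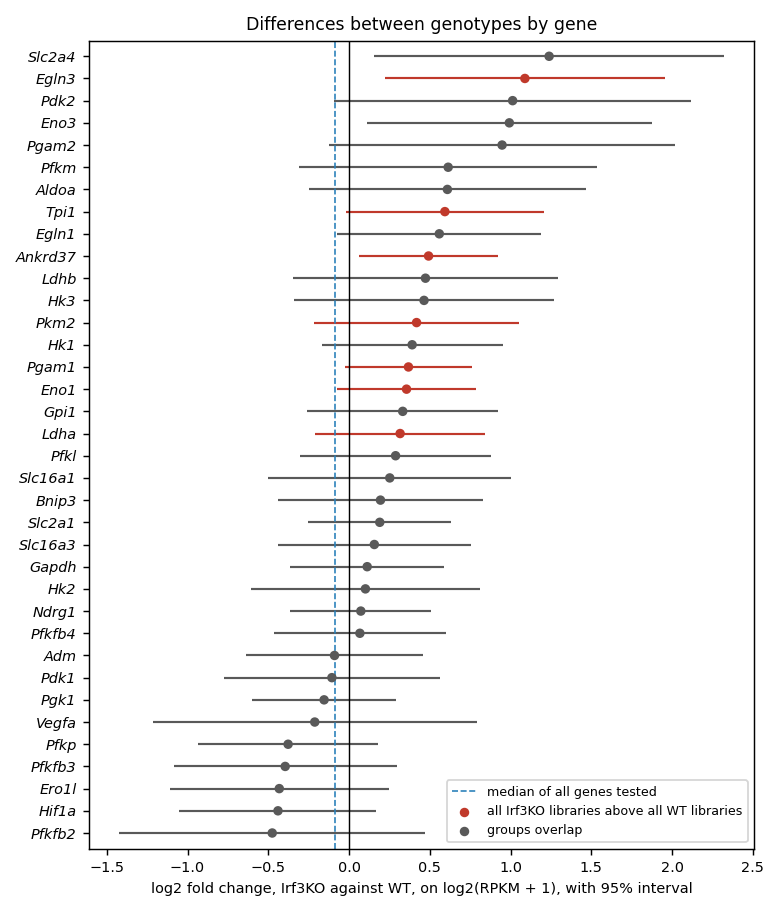
Log2 fold change of each gene, knockout against wild type, with its 95% interval from limma, ordered by size. Points in red are the 7 genes whose knockout libraries all lay above the wild type, the dashed line is the median of all genes (-0.09), and 4 intervals, those of Slc2a4, Egln3, Eno3 and Ankrd37, lie wholly above 0.

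The oxygen sensors and their target factor differed in direction. Egln3 encodes a prolyl hydroxylase that marks HIF-1 alpha for destruction and is itself induced by low oxygen. It stood at 27.4, 70.3 and 35.3 RPKM in knockout replicates 1 to 3 and at 12.4, 21.7 and 24.1 RPKM in wild-type replicates 1 to 3. The groups did not overlap, although knockout replicate 1 and wild-type replicate 3 were close. The ratio of mean RPKM was 2.28 and the log2 fold change 1.09 ± 0.38 (SE; limma adjusted p = 0.519). Without knockout replicate 2 the log2 fold change was 0.70. Egln1, the main oxygen-sensing hydroxylase in most cells, stood at 67.0, 94.6 and 72.5 RPKM against 37.5, 52.3 and 71.7 RPKM. Its groups overlapped through knockout replicate 1 and wild-type replicate 3 (0.56 ± 0.28, limma adjusted p = 0.556). Hif1a, which encodes HIF-1 alpha, stood at 39.7, 19.4 and 31.4 RPKM against 40.9, 40.5 and 37.5 RPKM. Its wild-type libraries lay close together, and knockout replicate 2 was the low one. The log2 fold change was -0.44 ± 0.27 (limma adjusted p = 0.556), and -0.16 without that library. HIF-1 alpha is controlled mostly as a protein, which these data do not measure.

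Signals and stress genes induced by low oxygen gave a median of -0.01 over 6 genes, 3 above and 3 below 0. Ankrd37, an ankyrin-repeat gene used as a marker of low oxygen, stood at 3.04, 1.97 and 2.04 RPKM in the knockout and 1.51, 1.13 and 1.45 RPKM in the wild type. All knockout values were the higher ones, at 1.72 times the wild-type mean (log2 fold change 0.49 ± 0.19, limma adjusted p = 0.556). Vegfa, the vessel growth factor, stood at 24.3, 20.3 and 28.2 RPKM against 12.3, 39.4 and 44.6 RPKM. The wild-type libraries enclosed all knockout libraries, with a 3.63-fold range among themselves, and the sign of the difference (-0.21 ± 0.44, limma adjusted p = 0.818) turned when wild-type replicate 2 or 3 was left out. Bnip3, which sends mitochondria to be degraded, stood at 24.0, 27.6 and 22.4 RPKM against 13.9, 23.3 and 29.8 RPKM. Its wild-type libraries likewise enclosed the knockout values. Adm, which encodes the vessel-widening peptide adrenomedullin, ranged from 3.55 to 6.58 RPKM, and Ndrg1, a stress gene, from 7.61 to 10.6 RPKM, with overlapping groups. Ero1l, an oxidase that helps proteins fold in the endoplasmic reticulum, stood at 8.11, 3.25 and 7.38 RPKM against 8.63, 8.08 and 8.11 RPKM. Its low value came from knockout replicate 2, and the log2 fold change of -0.43 ± 0.30 (limma adjusted p = 0.563) was -0.09 without it.

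The promoters of the set were searched for the 2 HIF core letters, since many of the genes, though not all, are known as HIF targets. RefSeq windows of 300 bases, 250 before and 50 after a transcript's start on GRCm38.p6, were found for 34 of the 36 genes, 50 windows in all. ACGTG, on either strand, was in 27 of the 50 windows (54%), against 19.6% of the 32851 windows of all genes. ACGTG or GCGTG was in 80% of the members' windows and in 43.8% of all windows. The members' windows were also richer in G and C, at 61.2% against 53.8%, which touches any motif with CG in it; its part in the difference was not tested. For the 23 genes with ACGTG in a window the log2 fold changes had their median at 0.25, and for the 11 with a window but no ACGTG at 0.33. A match is a description of the letters, not a bound site. Windows are shown for Egln3 and Ankrd37, whose groups did not overlap and whose unadjusted p was under 0.05, for Ldha, which held the most matches, and for the paired isozymes Pgam1 and Pgam2. They lie on GRCm38.p6 at chr12:54203825-54204124 (minus strand), chr8:45999801-46000100 (minus), chr7:46845554-46845853 (plus), chr19:41911621-41911920 (plus) and chr11:5803747-5804046 (minus), in that order. The capitals mark ACGTG or GCGTG and their reverse complements CACGT and CACGC, which overlap where CACGTG or CACGCGTG stands.
Egln3 promoter window: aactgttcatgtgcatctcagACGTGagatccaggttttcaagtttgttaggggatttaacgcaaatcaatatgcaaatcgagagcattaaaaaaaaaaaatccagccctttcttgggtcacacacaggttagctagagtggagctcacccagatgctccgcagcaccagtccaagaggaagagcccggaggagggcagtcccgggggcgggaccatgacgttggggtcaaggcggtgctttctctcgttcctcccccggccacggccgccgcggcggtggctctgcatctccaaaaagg
Ankrd37 promoter window: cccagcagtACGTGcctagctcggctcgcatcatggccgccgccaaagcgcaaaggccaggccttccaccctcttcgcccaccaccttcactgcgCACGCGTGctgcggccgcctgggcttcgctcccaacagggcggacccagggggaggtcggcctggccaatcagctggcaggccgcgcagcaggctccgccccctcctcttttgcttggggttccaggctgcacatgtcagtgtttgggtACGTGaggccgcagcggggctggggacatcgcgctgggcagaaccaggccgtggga
Ldha promoter window: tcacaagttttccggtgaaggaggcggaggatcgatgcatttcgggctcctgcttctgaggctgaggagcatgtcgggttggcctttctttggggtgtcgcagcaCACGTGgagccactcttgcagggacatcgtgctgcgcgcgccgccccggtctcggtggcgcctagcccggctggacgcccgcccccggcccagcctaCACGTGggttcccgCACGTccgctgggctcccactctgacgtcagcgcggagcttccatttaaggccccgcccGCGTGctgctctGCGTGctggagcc
Pgam1 promoter window: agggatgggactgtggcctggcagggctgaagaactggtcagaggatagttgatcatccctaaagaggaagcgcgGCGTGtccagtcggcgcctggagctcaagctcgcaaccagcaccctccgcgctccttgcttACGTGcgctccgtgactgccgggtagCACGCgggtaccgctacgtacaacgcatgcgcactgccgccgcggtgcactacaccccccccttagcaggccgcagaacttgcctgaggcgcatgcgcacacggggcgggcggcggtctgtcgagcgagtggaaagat
Pgam2 promoter window: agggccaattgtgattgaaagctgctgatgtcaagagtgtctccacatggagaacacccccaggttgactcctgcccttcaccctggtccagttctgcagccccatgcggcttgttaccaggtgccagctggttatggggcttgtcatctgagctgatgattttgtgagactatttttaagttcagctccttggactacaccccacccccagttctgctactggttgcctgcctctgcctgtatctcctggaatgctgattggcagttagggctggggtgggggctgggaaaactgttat
The Egln3 window held 1 match, the Ankrd37 window 4 and the Ldha window 7, counting each strand of CACGTG. The Pgam1 window held 3, and the window of its muscle isozyme Pgam2 held none of these letters. That contrast was not general. Among other muscle genes Pfkm, Hk2 and Pfkfb2 held ACGTG in a window, and Eno3 and Ldhb did not. Among other broad or leukocyte genes Slc2a1, Hk1, Hk3, Pfkfb3, Ldha and Slc16a3 held it, and Pfkl, Pfkp and Eno1 did not.

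Glucose enters the cell through carriers and is trapped by hexokinases. Slc2a4, the carrier that insulin moves to the surface of muscle cells, stood at 73.1, 175.4 and 90.3 RPKM in the knockout and 23.3, 45.3 and 79.7 RPKM in the wild type. The wild type alone spanned a 3.42-fold range, and wild-type replicate 3 lay above knockout replicate 1. This was the largest log2 fold change of the set at 1.24 ± 0.47, with a ratio of means of 2.28 (limma adjusted p = 0.556). It was 0.87 without knockout replicate 2 and 0.80 without wild-type replicate 1. Slc2a1, the carrier of most other cells, stood at 14.0, 18.6 and 17.2 RPKM against 15.3, 15.4 and 12.5 RPKM (0.19 ± 0.19, limma adjusted p = 0.643). Hk1, the broadly expressed hexokinase, stood at 29.1, 46.4 and 36.6 RPKM against 21.7, 30.5 and 32.4 RPKM. Hk2, the insulin-responsive hexokinase of muscle, stood at 34.8, 53.9 and 39.4 RPKM against 24.7, 46.5 and 51.7 RPKM. Both overlapped between genotypes. Hk3, the hexokinase of myeloid cells, ran the other way among the wild-type libraries, at 22.3, 12.0 and 7.26 RPKM, against 19.8, 15.4 and 18.2 RPKM in the knockout. Hk3 thus made up 32.5% of hexokinase RPKM in wild-type replicate 1 and 7.95% in wild-type replicate 3, with the knockout between them at 13.3% to 23.7%.

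Upper glycolysis holds the committed step, phosphofructokinase, and its regulators. Gpi1, which converts the glucose phosphate to fructose phosphate, stood at 54.4, 99.5 and 69.6 RPKM against 49.7, 58.6 and 64.1 RPKM in the wild type. Pfkm, the muscle phosphofructokinase, stood at 152, 249 and 173 RPKM against 68.8, 128 and 206 RPKM, so that wild-type replicate 3 lay among the knockout libraries (0.61 ± 0.40, limma adjusted p = 0.556). Pfkl, the liver-type gene, stood at 37.7, 71.5 and 48.6 RPKM against 37.0, 41.5 and 46.4 RPKM. Pfkp, the platelet-type gene, stood at 12.7, 13.9 and 15.0 RPKM against 12.8, 23.6 and 20.1 RPKM (-0.38 ± 0.24, limma adjusted p = 0.556). Pfkm made up 73.1% to 75.1% of phosphofructokinase RPKM in the knockout and 58%, 66.3% and 75.6% in wild-type replicates 1 to 3. The knockout libraries were nearly alike in this share and the wild-type libraries were not. Pfkfb2, the heart form of the enzyme that makes the phosphofructokinase activator, had the lowest log2 fold change of the set at -0.48 ± 0.41 (limma adjusted p = 0.602). It stood at 6.79, 2.91 and 5.43 RPKM against 3.37, 8.78 and 11.3 RPKM, with wild-type replicate 1 among the low values. Pfkfb3, the inducible form of the same enzyme, stood at 6.37, 3.35 and 6.96 RPKM against 10.3, 6.92 and 5.51 RPKM, and Pfkfb4 ranged from 4.53 to 7.78 RPKM. Both overlapped between genotypes.

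Aldolase and triosephosphate isomerase split the sugar and merge its products. Aldoa, the most abundant gene of the set, stood at 555, 1205 and 714 RPKM in the knockout and 416, 515 and 627 RPKM in the wild type. Knockout replicate 2 was far above the rest, and knockout replicate 1 lay below wild-type replicate 3 (0.61 ± 0.37, limma adjusted p = 0.556; 0.30 without knockout replicate 2). Its retrocopy Aldoart1 stood at 40.4, 92.7 and 52.2 RPKM against 27.7, 35.2 and 41.8 RPKM, in the same order of libraries as Aldoa. Tpi1 stood at 279, 422 and 308 RPKM against 193, 217 and 251 RPKM. All knockout libraries lay above the wild type, at 1.53 times its mean (0.59 ± 0.27, limma adjusted p = 0.556), and at 0.32 on the log2 scale with quantile normalization.

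Lower glycolysis, which yields the energy, held genes at both high and low levels. Eno3, the muscle enolase, stood at 385, 515 and 502 RPKM in the knockout and 142, 226 and 390.1 RPKM in the wild type. Only wild-type replicate 3 reached the knockout values, just above knockout replicate 1 (0.99 ± 0.38, ratio of means 1.85, limma adjusted p = 0.556). Without knockout replicate 2 it was 0.92 and without wild-type replicate 1 it was 0.64. Pgam2, the muscle phosphoglycerate mutase, stood at 212, 610.1 and 269.5 RPKM against 107, 170.0 and 266 RPKM. Knockout replicate 2 stood far above every other library (0.95 ± 0.47, limma adjusted p = 0.556), and without it the log2 fold change was 0.50. Eno1, the broad enolase, was far lower, at 26.2, 29.4 and 30.4 RPKM against 25.7, 21.7 and 19.5 RPKM. Pgam1, the broad mutase, stood at 9.23, 9.75 and 9.25 RPKM against 7.72, 6.73 and 6.78 RPKM. For both genes the knockout lay wholly above the wild type by a small step (0.36 ± 0.19 and 0.37 ± 0.17, limma adjusted p = 0.556 each). Pkm2, the symbol in the table for the pyruvate kinase gene of muscle and most other cells, stood at 506, 719 and 585 RPKM against 444, 442 and 454 RPKM. Its wild-type libraries were within 1.03-fold of each other and all below the knockout (0.42 ± 0.28, limma adjusted p = 0.556). With quantile normalization its log2 fold change was 0.09.

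Gapdh and Pgk1, enzymes that stand between Tpi1 and Pgam in the pathway, read low. Gapdh stood at 4.62, 3.29 and 4.23 RPKM in the knockout and 3.13, 3.27 and 4.66 RPKM in the wild type, with overlapping groups (0.11 ± 0.21, limma adjusted p = 0.798). Tpi1, the step before it, read at 193 to 422 RPKM. Pgk1 stood at 16.4, 13.9 and 16.9 RPKM against 14.7, 19.8 and 18.6 RPKM (-0.15 ± 0.19, limma adjusted p = 0.706). Of the 50-base stretches of Gapdh transcripts in GENCODE M21, 58.4% also stood in a transcript of another gene, and 215 of the 222 genes that shared one were pseudogenes. The share was 68% for Pgk1, 49.5% for Eno1, 41.5% for Pgam1 and 59.1% for Bnip3, and 0% for Eno3, Pgam2, Egln3, Slc2a4 and Pdk2. Tpi1 and Aldoa shared 6.83% and 6.57%, and Ldha shared 10.4%, with 14 genes that were all pseudogenes. Reads from shared stretches can be lost or moved to a copy, and the authors' handling of them is not stated. The levels and fold changes of Gapdh, Pgk1, Pgam1, Eno1, Bnip3, Gpi1, Ldhb, Pkm2 and Pfkfb2 are therefore uncertain. So are the isozyme share that uses Ldhb and the ratios Eno3 over Eno1, Pgam2 over Pgam1 and Ldhb over Ldha. The part of shared sequence in these low levels was not tested. Copies were in the table as well, Pgam1-ps2 at 11.6 to 20.02 RPKM, above Pgam1 itself in every library, and Pgk1-rs7 at 1.94 to 4.01 RPKM. Gm1840, the pseudogene that shares most with Gpi1, stood at 96.0 to 207.3 RPKM, above Gpi1 in every library, and Gm5514, the copy of Ldhb, at 71.0 to 173.3 RPKM, beside 74.4 to 203 RPKM for Ldhb. The share was 25% for Pfkfb2, 24.4% for Gpi1, 23.7% for Pkm2 and 21% for Ldhb. Ankrd37 shared 11.4% of its stretches with other genes, most of all with Lrp2bp. Pfkp shared 15.4% with Pitrm1, a protein-coding gene that is in the table too, which makes its level and the ratio of Pfkm to it less certain. For Ndrg1 (12.3%), Pfkm (8.83%) and Hif1a (6.26%) the gene sharing most was an antisense gene, from which reads cannot be told apart unless strand was used.

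**Figure D3:**
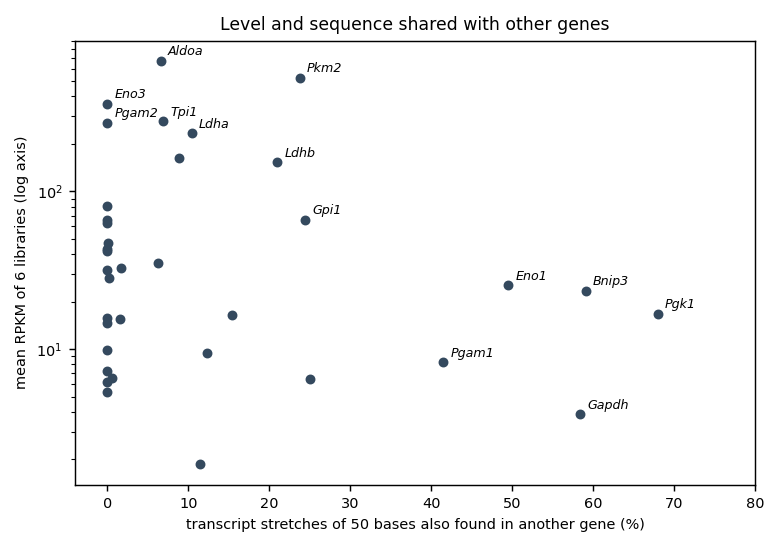
Mean RPKM over the 6 libraries (log axis) against the percentage of a gene's 50-base transcript stretches that also stand in another gene, 1 point per gene. The 5 genes above 40%, among them Gapdh at 58.4% and Pgk1 at 68%, all have a mean below 30 RPKM, while Eno3 and Pgam2 share 0%.

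Pyruvate is turned to lactate, burned in mitochondria or exported as lactate. Ldha, the form suited to making lactate, stood at 237, 258 and 281 RPKM in the knockout and 186, 212 and 226 RPKM in the wild type, with no overlap (0.32 ± 0.23, ratio of means 1.25, limma adjusted p = 0.567), and with quantile normalization its log2 fold change was 0.09. Ldhb, the heart form, stood at 155, 199 and 165 RPKM against 74.4, 125 and 203 RPKM, the wild type enclosing the knockout (0.47 ± 0.36, limma adjusted p = 0.573). Ldhb made up 37% to 43.5% of lactate dehydrogenase RPKM in the knockout and 28.6% to 47.4% in the wild type. Pdk2, a kinase that shuts off pyruvate dehydrogenase and is common in heart, stood at 45.3, 159.8 and 56.2 RPKM against 24.8, 34.5 and 55.7 RPKM. Knockout replicate 2 stood far above every other library, and the log2 fold change of 1.01 ± 0.48 (limma adjusted p = 0.556) was 0.46 without it. Pdk1, the HIF-induced kinase of the same family, stood at 14.9, 12.3 and 14.0 RPKM against 9.12, 16.4 and 21.4 RPKM (-0.11 ± 0.29, limma adjusted p = 0.866). Slc16a1, a lactate and pyruvate carrier, stood at 45.4, 46.9 and 44.2 RPKM against 22.2, 41.8 and 59.0 RPKM. Slc16a3, the lactate exporter of glycolytic cells, stood at 8.97, 10.9 and 11.1 RPKM against 13.7, 7.92 and 6.91 RPKM. The wild-type libraries enclosed the knockout for both carriers, and ran in opposite orders.

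Muscle isozymes and cardiomyocyte markers had nearly the same relative level in each library. Over 7 muscle-enriched genes (Slc2a4, Hk2, Pfkm, Pfkfb2, Pgam2, Eno3 and Ldhb) the median of log2(RPKM + 1) relative to the wild-type mean was 0.33, 1.03 and 0.50 in knockout replicates 1 to 3 and -0.73, 0.04 and 0.71 in wild-type replicates 1 to 3. Over 20 cardiomyocyte markers, all in the table, it was 0.49, 1.04 and 0.55 against -0.77, 0.11 and 0.74. The summed level of these markers was 19504 to 32185 RPKM in the knockout and 9002 to 24780 RPKM in the wild type, and none was called. All 20 had a log2 fold change above 0, with a median of 0.62 (0.54 without knockout replicate 2). Not all 20 stayed above 0 without that library. Tnnt2 was at 0.04 and went to -0.03, while Myh6 was at 0.56 and went to 0.40. Over 10 broad or leukocyte isozymes (Slc2a1, Hk1, Hk3, Pfkl, Pfkp, Pfkfb3, Pgam1, Eno1, Ldha and Slc16a3) the medians were 0.02, 0.33 and 0.30 against 0.10, -0.02 and -0.11. In bulk tissue fewer cells of a type and less RNA per cell cannot be told apart, and the part of the cardiomyocyte share in the values of the muscle isozymes was not tested. The median log2 fold change was 0.61 for the muscle genes (6 of 7 above 0) and 0.30 for the broad genes (8 of 10 above 0), with 0 called in either group. The muscle value was 0.41 without knockout replicate 2, 0.21 without wild-type replicate 1 and 0.99 without wild-type replicate 3. The broad value was 0.17 without knockout replicate 2 and 0.19 without wild-type replicate 3.

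Markers of other cells ran differently across libraries. Of 19 macrophage markers 18 were in the table, with a summed level of 2479 to 6555 RPKM in the knockout and 3975 to 7565 RPKM in the wild type, and 17 of the 18 had a log2 fold change below 0 (median -0.44, and -0.14 without knockout replicate 2). The 1 above 0 was Cd68, at 0.29 (0.47 without knockout replicate 2). Csf1r, another defining marker, was at -0.24 and turned to 0.14 without that library. The median of the macrophage markers relative to the wild-type mean was 0.00, -1.35 and -0.23 in knockout replicates 1 to 3 and 0.49, -0.13 and -0.28 in wild-type replicates 1 to 3. Hk3 was highest in wild-type replicate 1, as these markers were. Fibroblast markers (13 of 13) summed to 5025 to 6963 RPKM against 7692 to 8756 RPKM, with no overlap between genotypes. Neutrophil markers (7 of 11) summed to 61.4 to 81.4 RPKM against 39.6 to 111.6 RPKM. Endothelial markers (11 of 11) summed to 232 to 364 RPKM against 283 to 404 RPKM. Smooth muscle and pericyte markers (8 of 8) summed to 666 to 805 RPKM against 729.6 to 1184 RPKM. Red cell markers (5 of 7) summed to 130.4 to 899.5 RPKM against 89.1 to 386 RPKM. Skeletal muscle markers (5 of 11) had a median log2 fold change of -0.71, with 2 above and 3 below 0, and Myh4 and 5 others are not analysed here. At an unadjusted limma p under 0.05 there were 1 higher and 3 lower, against 2.45% and 5.96% of all genes. Without overlap there were also 1 higher and 3 lower, against 6.61% and 11.8%. The summed level was 696.6 to 6024 RPKM against 230.5 to 909 RPKM, most of it in knockout replicate 2 from Acta1, an actin that heart muscle also makes, at 5012 RPKM (picked out after its value was seen). Ckm, also picked out afterwards, stood at 319, 1005 and 441 RPKM against 91.7, 152 and 296 RPKM (1.69 ± 0.53, limma adjusted p = 0.454). Acta1 and Ckm made up most of the sum in every library. None of these markers was called, and their part in the values of the set was not tested.

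**Figure D4:**
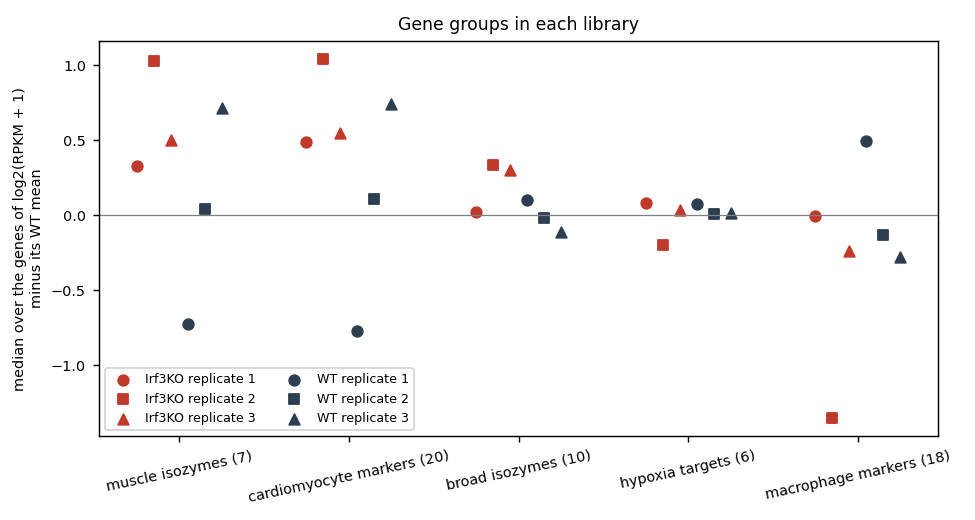
Median over each gene group of log2(RPKM + 1) minus its wild-type mean, 1 point per library, for muscle isozymes, cardiomyocyte markers, broad isozymes, hypoxia targets and macrophage markers. Muscle isozymes and cardiomyocyte markers share their order, from wild-type replicate 1 (-0.73 and -0.77) to knockout replicate 2 (1.03 and 1.04). The median of the 6 hypoxia targets stays between -0.20 and 0.08, but single targets ran in different directions. From wild-type replicate 1 to 3 Vegfa rose from 12.3 to 44.6 RPKM and Ndrg1 fell from 10.6 to 7.61 RPKM.

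Ratios of genes that serve 1 step were compared within each library, where the library's scaling nearly cancels. Pfkm over Pfkp stood at 12.0, 17.9 and 11.5 in the knockout and 5.36, 5.43 and 10.2 in the wild type, with no overlap. The difference in log2 ratio was 1.01, and the exact two-sided permutation test gave p = 0.1, the smallest that 3 against 3 allows (adjusted p = 0.6 over 6 pairs). Pfkp held the smallest part of phosphofructokinase RPKM, at 4.17% to 12.2% per library, and Pfkl held 17.0% to 31.2%. For Pfkm over Pfkl, which was not among the tested pairs, the wild type enclosed the knockout. Wild-type replicate 3 had the highest Pfkm share (75.6%) and the lowest Pfkl share, and wild-type replicate 1 had the reverse. Slc2a4 over Slc2a1 stood at 5.21, 9.45 and 5.26 against 1.53, 2.95 and 6.37, a difference of 1.06 (exact permutation p = 0.3). Eno3 over Eno1 stood at 14.7, 17.5 and 16.5 against 5.52, 10.5 and 20.01, a difference of 0.63 (exact permutation p = 0.4). Pgam2 over Pgam1 differed by 0.54 (exact permutation p = 0.5), Ldhb over Ldha by 0.16 (p = 0.8) and Slc16a1 over Slc16a3 by 0.08 (p = 1). In 5 of these 6 ratios, all but Pfkm over Pfkp, the groups overlapped, and wild-type replicate 3 held the highest wild-type ratio in all 6. Eno1, Pgam1, Ldhb and Pfkp share sequence with other genes, as given above, so the ratios that use them are less certain.

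**Figure D5:**
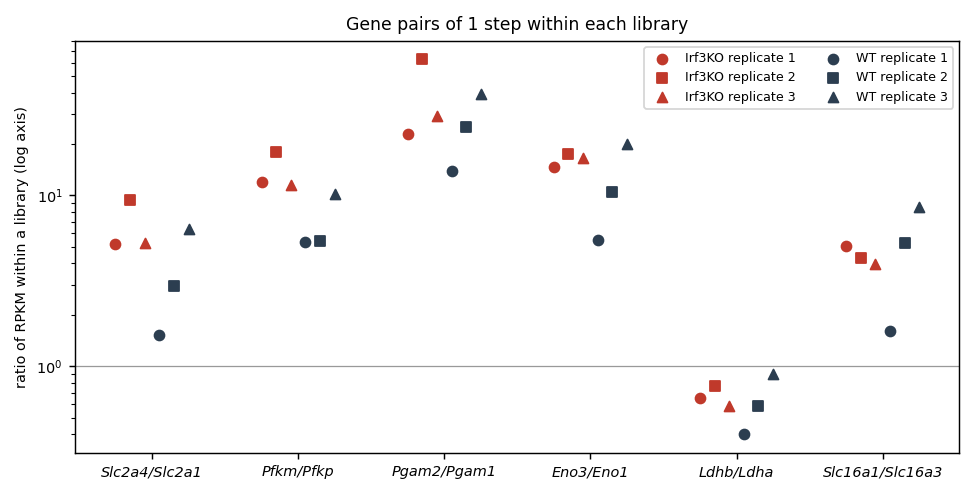
Ratio of RPKM within each library (log axis) for 6 pairs of genes that serve the same step, 1 point per library. Knockout libraries lie close together for Eno3 over Eno1 (14.7 to 17.5) where the wild type spans 5.52 to 20.01, and Pfkm over Pfkp is the pair without overlap. Pfkm over Pfkl, which is not drawn, overlapped between genotypes. Ratios that use Eno1, Pgam1, Ldhb or Pfkp are less certain because these genes share sequence with others.

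Other genes of the pathway were looked at from lists of glucose enzymes, HIF targets and HIF regulators, and 0 of 28, 0 of 32 and 0 of 9 tested genes passed with limma (0, 3 and 1 at an unadjusted p under 0.05). Their median log2 fold changes were 0.18, 0.00 and -0.12. Among glucose enzymes the smallest p belonged to Pdk4, the kinase of pyruvate dehydrogenase raised by fasting, at 49.1, 41.9 and 52.1 RPKM against 14.3, 39.2 and 43.4 RPKM (0.69 ± 0.39, limma adjusted p = 0.556). Next were the glycogen phosphorylases of muscle and brain, Pygm and Pygb, at 0.78 ± 0.45 and 0.61 ± 0.35. Among HIF targets Tfrc, the transferrin receptor for iron uptake, came nearest to the threshold of the genes named here. It stood at 21.3, 24.0 and 22.8 RPKM against 9.38, 10.9 and 12.1 RPKM, so that each group was tight and the groups lay far apart. Its log2 fold change was 1.01 ± 0.18 (limma adjusted p = 0.0754), and leaving out single libraries gave 0.0453 (without knockout replicate 2, where it passed) to 0.358. Plod2, a lysyl hydroxylase of collagen, stood at 34.1, 13.6 and 27.0 RPKM against 46.3, 54.8 and 46.5 RPKM (-1.04 ± 0.32, limma adjusted p = 0.436). P4ha1, the collagen prolyl hydroxylase, stood at 37.8, 19.6 and 36.7 RPKM against 48.3, 54.1 and 41.9 RPKM (-0.65 ± 0.28, limma adjusted p = 0.556). Both collagen genes lay wholly below the wild type, with their lowest values in knockout replicate 2, and fibroblast markers read lower in the same libraries, as given above; their part in these values was not tested. Among regulators Arntl, a clock factor related to the HIF partner Arnt, was at -0.83 ± 0.29 (limma adjusted p = 0.527), with all knockout libraries below the wild type. Egln2, the third prolyl hydroxylase, and Tceb2, a subunit of the ligase that removes HIF-1 alpha, were at 0.44 ± 0.27 and 0.45 ± 0.28.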

How the data were processed

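Total RNA of 6 infarct libraries was sequenced. The deposited table, named so by the authors, holds RPKM to 2 decimals and a gene length. The submitters' processing notes list STAR 2.3.0, SAMtools 0.1.18.0, Picard 1.100, HTSeq 0.6.0 and edgeR 3.8.6, on NCBIM37 (mm9); no source used here gives settings, strand or how reads with several matching places were treated. A split gene name was rejoined in 5 lines. Low RPKM times length stepped by 1 read, which gave the depths; read numbers quoted per gene are RPKM times length times depth. RPKM are not counts, so no count model was run.

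The test used log2(RPKM + 1) of genes whose mean reached 1 RPKM, in limma 3.58.1 under R 4.3.3 (eBayes with trend, two-sided, Benjamini-Hochberg over 12913 genes, threshold 0.05); this scale understates changes of low genes. The fit was tested on simulated data. Gene pairs were compared as log2 ratios (pseudocount 0.1) by exact permutation. All members, the 3 genes of smallest p in each other pathway list, a few defining markers and Irf3 are named; Aldoart1, Pgam1-ps2, Pgk1-rs7, Gm1840 and Gm5514 were chosen after their values were seen. Members and lists were chosen with earlier results of these data known, and the checks of shared sequence, isozyme shares and promoter letters were added after values were seen. Sequence sharing and promoters came from GENCODE M21 and RefSeq, both on GRCm38 and not the authors' build, matched by symbol (Ero1l and Pkm2 by their current symbols). Alternatives were another pseudocount, filters, scalings, library weights, a replicate block and leaving out each library.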

Additional observations from a re-analysis of the deposited data

How the results depend on the processing

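The count of members called stayed at 0 with a pseudocount of 0.1, without a filter, with a mean of at least 5 RPKM (34 members tested), with median-of-ratios scaling, with quantile normalization and with any 1 library left out. It was 13 (11 higher, 2 lower) with limma's library weights, which ran from 0.10 for knockout replicate 2 to 6.36 for knockout replicate 3 and called 22.9% of all genes; the gene-by-gene weights were taken after the default estimate had failed to converge. With the replicate number as a block it was 2, Egln3 and Slc2a4 (limma adjusted p = 0.0394 and 0.0376), and 250 genes in all were called against 65. The labels do not state that equal numbers pair samples. After each gene's group mean was subtracted, the correlations of same-numbered libraries were 0.13, -0.10 and -0.10. Not every library then correlated best with its own number in the other group. For the pair ratios the block cannot change the difference between groups. Its exact sign-flip test cannot go below p = 0.25, so it could call no pair and checks nothing there. The main exact permutation test of the pairs, which cannot go below p = 0.1, could call none either.

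Leaving out single libraries moved the median log2 fold change of the members between 0.21 and 0.36, that of muscle isozymes between 0.21 and 0.99 and that of broad isozymes between 0.17 and 0.38. The count of members whose groups do not overlap ran from 7 to 19. Without knockout replicate 1 it was 19 (17 higher, 2 lower, where 13.3% and 26.4% of all genes were higher and lower). Without wild-type replicate 1 it was 14 (9 higher, 5 lower; 15.2% and 20% of all genes), and without wild-type replicate 3 it was 18 (17 higher, 1 lower; 13.4% and 20.2%). With all libraries, median-of-ratios scaling gave 7 higher and 1 lower (Ero1l) and quantile normalization 5 higher and 1 lower (Hif1a). Pair differences ran from 0.16 to 1.09 for Eno3 over Eno1, 0.81 to 1.32 for Pfkm over Pfkp, 0.12 to 0.90 for Pgam2 over Pgam1, 0.56 to 1.58 for Slc2a4 over Slc2a1, -0.13 to 0.46 for Ldhb over Ldha and -0.59 to 0.60 for Slc16a1 over Slc16a3.

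Of 36 members 27 kept their sign under every alternative run. The filters and the replicate block cannot change a gene's log2 fold change, so only the other alternatives could turn a sign. Signs turned for Adm (0.13 with library weights, 0.0117 with median-of-ratios scaling and 0.0853 with quantile normalization), Hk2 (-0.21 with library weights and -0.0026 with quantile normalization), Bnip3 (-0.0400 with library weights) and Pdk1 (0.0108 with median-of-ratios scaling), and the cause was not tested. Leaving out single libraries gave -0.25 to 0.12 for Adm, -0.10 to 0.43 for Bnip3, -0.22 to 0.30 for Hk2, -0.0472 to 0.17 for Ndrg1, -0.43 to 0.14 for Pdk1, -0.10 to 0.20 for Pfkfb4, -0.12 to 0.56 for Slc16a1, -0.0211 to 0.43 for Slc16a3 and -0.78 to 0.11 for Vegfa. Without a change of sign, the log2 fold change moved by over 1.5 times for 9 members with median-of-ratios scaling, 15 with quantile normalization and 15 with library weights.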
